A study of Saccharomyces cerevisiae with 12 samples.

Results

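The comparison described here sets yeast cells carrying a Sac3 protein with 1 substituted residue against cells with no Sac3 at all. It uses 6 of the 12 RNA sequencing samples of the series, chosen by their column names in the authors' deposited table of normalised read densities. R288D cells (3 samples) are sac3∆ cells with the plasmid pRS315 Sac3 R288D, and sac3∆ cells (3 samples) are sac3∆ cells with the empty plasmid pRS315. Of 7126 features in the table, 6124 averaged 1 RPKM or more across the 12 samples and were compared. RPKM is a read density, the reads of a gene divided by its length and by the size of the library.

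WT cells (3 samples) are also sac3∆, but carry a tagged wild type gene on the same plasmid, pRS315 13MYC-SAC3. Their values are given as the level with Sac3 restored. The remaining group (3 samples) is cdk8∆ with the empty plasmid and keeps the chromosomal SAC3 gene. It enters the estimate of the spread and the mean by which features were chosen for testing. Of single genes, only YLR012C is given with its cdk8∆ values. No group was treated, and all were grown untreated in SDC-Leu, a synthetic medium without leucine that keeps the LEU2 plasmid. Because R288D and WT Sac3 both come from a plasmid and the labels name the tag only for WT, the tag cannot be told apart from the substitution in values of R288D against WT. The labels do not say whether replicates were separate cultures, so p-values measure only the spread between these samples.

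Sac3 is the scaffold of TREX-2, a complex at the nuclear pore that links transcribed genes to the export of their mRNA, and its partners are Thp1, Cdc31, Sus1 and Sem1. The study's title ties TREX-2 to Mediator, the coactivator that passes signals from gene-specific activators to RNA polymerase II, and R288D lies in the part of Sac3 that the study examined for this link. Setting R288D against sac3∆ asks which transcripts still depend on the rest of the protein once this residue is changed.

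The SAC3 gene lies on chromosome IV at chrIV:771877-775782 on the plus strand of the R64 build, and is a single exon. The window below covers the codon of the residue substituted in R288D and 10 codons to each side in the RefSeq R64 sequence, with the codon in capitals. It is shown because this codon encodes the residue that R288D substitutes.
SAC3 window, chrIV:772708-772770, plus strand: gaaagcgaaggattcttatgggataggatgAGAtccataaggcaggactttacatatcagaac
The capitals read AGA, an arginine codon. The reads themselves were not used here, so the substituted codon was not read back from the samples.

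The genotypes were checked with SAC3 itself. Its RPKM was 64.9, 62.5 and 63.8 in the R288D samples and 0.015, 0.0931 and 0.0294 in the sac3∆ samples, and it was 51.3, 53.5 and 48.9 in the WT samples. SAC3 transcript was thus present in every R288D sample and nearly absent from every sac3∆ sample, as the labels say. The a-cell receptor gene STE2 stood at 740.6, 634.8 and 695.1 RPKM in R288D and at 623.0, 640.0 and 598.3 RPKM in sac3∆, and the alpha-cell receptor gene STE3 at 8.73, 7.46 and 6.39 RPKM in R288D and at 6.41, 8.53 and 8.59 RPKM in sac3∆. Both groups had STE2 far above STE3, the pattern of a cells.

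Reads assigned to annotated features, recovered from the steps of the values, came to between 14891680 and 21003328 per sample, the lowest in R288D replicate 2. One library stood somewhat apart. R288D replicate 2 differed from R288D replicates 1 and 3 by a median of 0.156 and 0.133 on the log2(RPKM + 1) scale over the tested features, against 0.0926 between replicates 1 and 3. In replicate 2 the glucose-repressed genes lay a median of 0.63 above the mean of the other two R288D samples, hexose transporter and glucose sensing genes 0.39 above, trehalose and glycogen genes 0.38 above and general stress genes 0.28 above. Ribosome biogenesis genes lay 0.31 below and ribosomal protein genes 0.23 below. These lists are named because their values in replicate 2 had been seen. Results that rest on this library are given with and without it.

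Few transcripts separated R288D from sac3∆. With limma on log2(RPKM + 1) and Benjamini-Hochberg adjustment over all 6124 features, 84 features (1.37%) had an adjusted p under 0.05, and such features are named called below. Of the 84, 64 (1.05% of all tested features) were higher and 20 (0.327%) lower in R288D than in sac3∆. Counts of called genes in gene lists can be read against these shares. An unadjusted p under 0.05 was found for 683 (11.2%), the level against which such counts in gene lists can be read. In the same model, R288D against WT gave 3108 called features (50.8%), of which 1611 (26.3%) were higher and 1497 (24.4%) lower in R288D. Setting sac3∆ against WT gave 3156 (51.5%), of which 1681 (27.4%) were higher and 1475 (24.1%) lower in sac3∆, and these 2 comparisons share the WT samples. The median size of the log2 difference over all tested features was 0.07 for R288D minus sac3∆, 0.22 for R288D minus WT and 0.23 for sac3∆ minus WT.

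All 84 called features were protein-coding genes, and in each the 3 R288D values lay wholly above or wholly below the 3 sac3∆ values, as they did for 12.0% of all tested features. Most called differences were small. Their median size was 0.38 on the log2 scale, 62 were under 0.5, and 6 reached 2-fold: SAC3, INO1, ZRT1, YLR012C and MF(ALPHA)1 were higher and YNR064C was lower. Without R288D replicate 2 there were 468 called features (7.64%), 230 higher (3.76%) and 238 lower (3.89%), and all 84 were among them. Without sac3∆ replicate 1 there were 53. With each of the 6 samples left out in turn, 48 of the 84 stayed called throughout and 36 dropped out at least once. Among the genes described below, those 36 include ACC1, ARN2, BUD8, CHO2, CHS1, CLB1, EPT1, FAS1, FIT3, FRE5, HXT1, KNH1, KRE6, PCL9, PDC5, RNR3, SAH1, SIT1, TDH1 and UBX6, and their highest adjusted p in these runs was 0.203, for BUD8. With the spread estimated from the 6 samples of these groups alone, 17 features were called: SAC3, INO1, ZRT1, SAM2, FRE7, ITR1, OPI3, SSA3, PSD1, CTR1, CHO1, PRM1, CDS1, YNR064C, FIT2, COS8 and EGT2. Those 17 were called under all 15 alternatives run, apart from PRM1 and YNR064C, which a filter at a mean of 10 RPKM left out of the test.

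**Figure D1:**
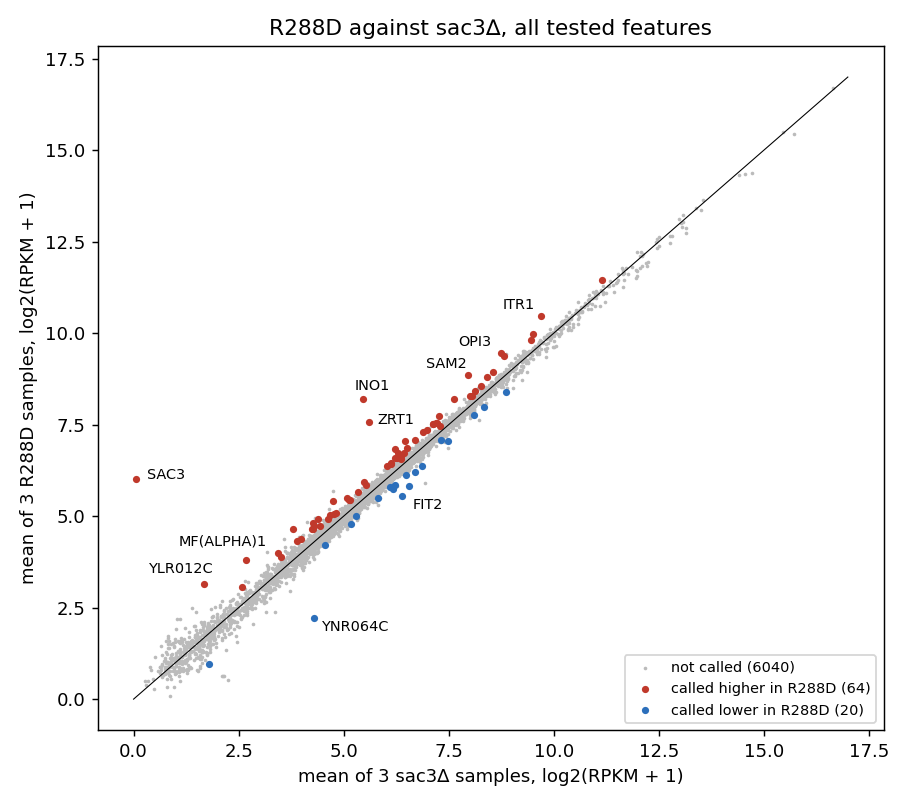
Log2 of the mean RPKM plus 1 of the 3 R288D samples (vertical axis) against that of the 3 sac3∆ samples (horizontal axis) for the 6124 tested features. Red points are the 64 called higher in R288D, blue points the 20 called lower, grey points the rest, and the line marks equal values; nearly all features lie along it.

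A feature that missed the threshold is not shown to be alike in both groups, so the intervals were examined. The 95% interval of R288D minus sac3∆ lay inside -0.5 to 0.5 on the log2 scale for 5197 features (84.9%). It lay wholly beyond those limits for 14 and reached across a limit for 913. Among the 728 features with a mean under 10 RPKM only 198 had an interval inside the limits, so for weakly expressed genes a difference of that size was often not resolvable.

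Inositol and phospholipid synthesis genes gave the largest count of genes called higher in R288D of the 59 gene lists examined. These genes share the activators Ino2 and Ino4, which bind their promoters, and the repressor Opi1, which stays bound to phosphatidic acid in the endoplasmic reticulum when inositol is scarce and enters the nucleus when it is plentiful. Of 15 listed members, 11 were called higher and 0 lower, and their median log2 difference was 0.43, against -0.01 over all tested features. The listed genes were chosen as known Ino2 and Ino4 targets or regulators, with earlier results of these data known.

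INO1 encodes inositol-3-phosphate synthase, the first enzyme of inositol synthesis, and is a single exon at chrX:134332-135933 on the minus strand. Its RPKM was 317.8, 289.0 and 269.6 in R288D, 39.3, 42.4 and 47.0 in sac3∆, and 100.4, 98.2 and 93.0 in WT. The groups did not overlap, with R288D above WT and sac3∆ below it. INO1 was 6.68-fold higher in R288D than in sac3∆ on the RPKM + 1 scale (log2 difference 2.74 ± 0.08, SE, n = 3 each; limma adjusted p = 1.86e-09). Against WT it was 1.58 higher in R288D (log2, limma adjusted p = 6.40e-08) and 1.16 lower in sac3∆ (log2 difference -1.16, limma adjusted p = 6.12e-07).

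ITR1, the main inositol transporter at the cell surface, had 1452.8, 1438.4 and 1326.1 RPKM in R288D, against 821.9, 809.7 and 839.5 RPKM in sac3∆ and 1008.3, 1010.0 and 980.7 RPKM in WT. It rose by 0.77 ± 0.05 (log2, SE; limma adjusted p = 1.57e-05). INO2, which encodes the activator, had 25.5, 27.1 and 28.2 RPKM in R288D, against 19.0, 16.7 and 19.5 RPKM in sac3∆ (0.53 ± 0.06, log2, SE; limma adjusted p = 0.00123). Both genes kept the R288D samples above every sac3∆ and every WT sample. The repressor gene OPI1 was also higher, at 99.9 ± 3.59 RPKM in R288D and 78.9 ± 3.35 RPKM in sac3∆ (SD, n = 3 each; log2 0.34, limma adjusted p = 0.00551), while INO4, the partner of Ino2, averaged 75.2 ± 1.38 RPKM in R288D and 66.0 ± 7.13 RPKM in sac3∆ and was not called.

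The 4 listed enzymes on the route that makes phosphatidylserine, phosphatidylethanolamine and phosphatidylcholine from CDP-diacylglycerol were called higher. The gene of the second phosphatidylserine decarboxylase, PSD2, is not on the list and was not called (log2 0.12, interval 0.02 to 0.22, limma adjusted p = 0.314). CHO1, phosphatidylserine synthase, had 666.6, 710.0 and 598.2 RPKM in R288D, against 455.6, 453.4 and 432.1 RPKM in sac3∆ and 644.0, 591.1 and 627.8 RPKM in WT. The sac3∆ samples were the low ones, and R288D overlapped WT. PSD1, the mitochondrial phosphatidylserine decarboxylase, had 110.8, 118.2 and 108.9 RPKM in R288D, against 70.8, 70.4 and 78.4 RPKM in sac3∆ (log2 0.62 ± 0.05, SE; limma adjusted p = 3.71e-05). OPI3, which carries out the last methylations to phosphatidylcholine, had 718.8, 680.0 and 709.9 RPKM in R288D, against 400.6, 416.5 and 461.5 RPKM in sac3∆ and 597.7, 598.1 and 605.5 RPKM in WT (log2 0.72 ± 0.06, SE, for R288D minus sac3∆; limma adjusted p = 2.42e-05). CHO2, which carries out the first methylation, differed least, by 0.24 ± 0.05 (log2, SE; limma adjusted p = 0.0245), and both mutants had less of it than the 372.2 RPKM mean of WT.

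The genes for the salvage route, which builds phospholipids from choline and ethanolamine, moved less evenly. HNM1, the choline transporter, and the phosphotransferase genes EPT1 and CPT1 were called higher, by 0.43, 0.46 and 0.36 on the log2 scale. The kinase genes CKI1 (0.34, 95% interval 0.15 to 0.53, limma adjusted p = 0.108) and EKI1 (0.22, interval 0.08 to 0.35, limma adjusted p = 0.163) were not called, although their R288D samples also lay above their sac3∆ samples. PIS1, phosphatidylinositol synthase, averaged 304.8 ± 2.42 RPKM in R288D and 312.3 ± 9.71 RPKM in sac3∆ (SD, n = 3 each), with an interval of -0.15 to 0.08 on the log2 scale. In all, 14 of the 15 listed genes had every R288D value above every sac3∆ value, against 7.04% of all tested features. The number called was 12 without R288D replicate 2, and 5 with the spread taken from the 6 samples alone: INO1, ITR1, OPI3, PSD1 and CHO1.

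**Figure D2:**
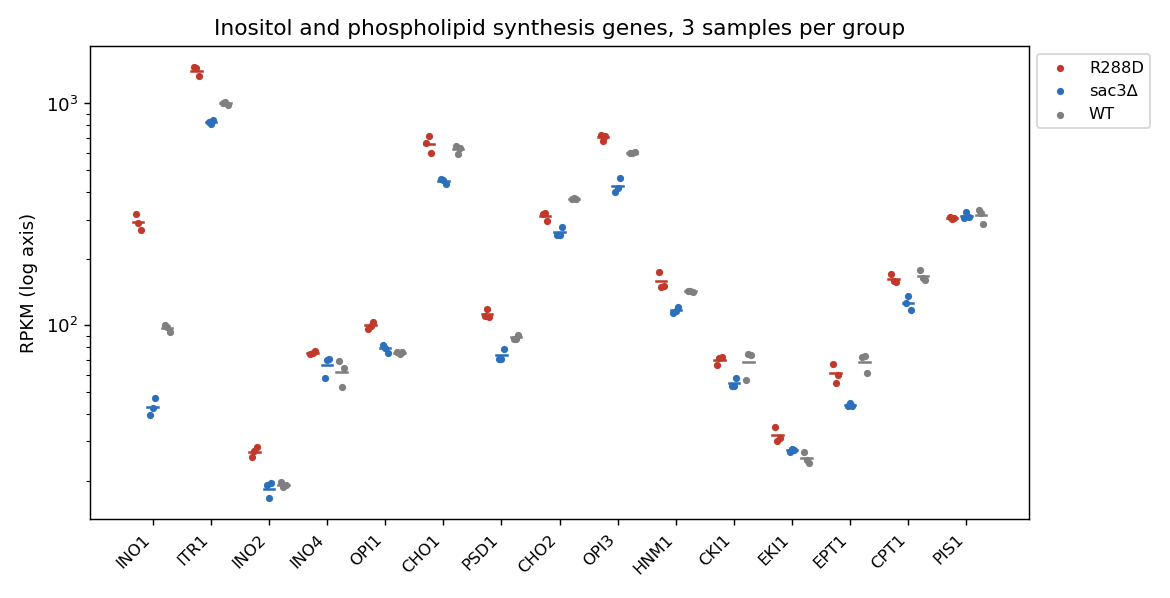
RPKM on a log axis of the 15 listed inositol and phospholipid synthesis genes in each of 3 R288D (red), sac3∆ (blue) and WT (grey) samples; short bars are group means. For INO1 the R288D samples sit at 269.6 to 317.8, the sac3∆ samples at 39.3 to 47.0 and the WT samples between them, while PIS1 shows no separation.

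Promoters were searched for the core of UAS-INO, the element that Ino2 and Ino4 bind together. Both strands of the 300 bases before each start codon were searched in the RefSeq R64 sequence for the letters CATGTG. The core was found in 399 of 5655 promoters (7.06%), in 24 of the 64 genes called higher (37.5%), in none of the 20 called lower, and in 9 of the 11 listed genes called higher. OPI1 and EPT1 are the 2 of those 11 without these letters in the window. Of all 15 listed genes 12 hold the core (80.0%), so it is also present in the listed genes CKI1, EKI1 and INO4, which were not called. A longer form of the element, of 10 bases, matched 2 of 5655 promoters, none of the 15 listed genes and 1 of the 64 called higher, YEL073C. Promoters of 5 genes that rose and hold the core are shown 5′ to 3′ in the direction of the gene. Capitals mark CATGTG, or CACATG where the core lies on the other strand.
INO1, chrX:136066-136216, minus strand: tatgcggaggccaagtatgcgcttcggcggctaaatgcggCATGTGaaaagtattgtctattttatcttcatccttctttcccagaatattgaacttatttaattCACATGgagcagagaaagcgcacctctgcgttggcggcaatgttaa
OPI3, chrX:573038-573187, minus strand: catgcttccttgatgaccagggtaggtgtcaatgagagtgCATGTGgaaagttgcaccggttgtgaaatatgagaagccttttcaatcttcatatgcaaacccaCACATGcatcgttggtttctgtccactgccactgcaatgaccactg
ITR1, chrIV:1445643-1445767, minus strand: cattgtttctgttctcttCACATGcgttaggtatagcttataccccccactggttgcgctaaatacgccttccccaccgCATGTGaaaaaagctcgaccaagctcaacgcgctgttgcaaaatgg
CHO1, chrV:208588-208673, minus strand: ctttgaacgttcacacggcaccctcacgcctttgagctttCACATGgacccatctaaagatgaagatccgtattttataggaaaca
INO2, chrIV:699567-699654, minus strand: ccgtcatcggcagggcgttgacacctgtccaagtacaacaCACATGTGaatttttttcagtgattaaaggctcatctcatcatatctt
INO1, OPI3 and ITR1 each hold 2 copies, in opposite orientations, and in INO2 the 2 matches overlap. A match to these letters is a description of the sequence and not evidence that a factor was bound in these cells.

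Genes next to this pathway were also higher. CDS1, the CDP-diacylglycerol synthase that supplies all of these branches, had 225.3, 203.0 and 202.9 RPKM in R288D, against 149.3, 153.7 and 154.5 RPKM in sac3∆ (log2 0.46 ± 0.05, SE; limma adjusted p = 0.000501). YEL073C, an open reading frame whose RefSeq entry calls it regulated by inositol and choline, had 144.7, 126.8 and 127.1 RPKM in R288D, against 81.2, 81.0 and 98.9 RPKM in sac3∆. Its groups were clear of each other, and the log2 difference was 0.61 ± 0.10 (SE; limma adjusted p = 0.00682). UBX6, whose entry names repression by inositol and choline, rose by 0.34 (limma adjusted p = 0.00966). CDS1, YEL073C and UBX6 are outside the listed genes and are named after their values were seen.

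Of 13 fatty acid synthesis genes, 3 were called higher and 0 lower. They are ACC1, the acetyl-CoA carboxylase, and FAS1 and FAS2, the subunits of fatty acid synthase. FAS1 had 485.1, 404.7 and 442.7 RPKM in R288D, against 328.2, 344.7 and 351.9 RPKM in sac3∆ and 807.6, 855.8 and 779.5 RPKM in WT. The 3 groups were separate, with R288D between sac3∆ and WT. The log2 differences were 0.37 for FAS1, 0.39 for FAS2 and 0.28 for ACC1 (SE 0.07, 0.06 and 0.05). The list's median was 0.03, and the count was 6 without R288D replicate 2 and 1 without sac3∆ replicate 1 or 2. In ergosterol synthesis, 1 of 24 genes was called, ERG20, the farnesyl diphosphate synthase, at 0.28 (limma adjusted p = 0.00997), and all 24 had an interval inside -0.5 to 0.5.

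Within the sulfate and methionine list, 4 of 33 genes were called higher and 0 lower, and the 4 belong to the cycle that makes and recycles S-adenosylmethionine, the methyl donor. SAM2, an S-adenosylmethionine synthetase, had 495.0, 442.6 and 450.8 RPKM in R288D, against 240.7, 248.1 and 250.5 RPKM in sac3∆ and 841.5, 816.7 and 781.4 RPKM in WT. It was 1.87-fold higher in R288D than in sac3∆ on the RPKM + 1 scale (log2 0.90 ± 0.05, SE; limma adjusted p = 3.24e-06) and lower than in WT. SAM1, the second gene for the same enzyme activity, averaged 380.3 ± 24.9 RPKM in R288D, 385.8 ± 13.6 RPKM in sac3∆ and 781.5 ± 12.5 RPKM in WT (SD, n = 3 each). Both mutants were thus well below WT for SAM1, whose log2 interval for R288D minus sac3∆ was -0.14 to 0.09. SAM1 was picked after its values were seen, and the difference between SAM1 and SAM2 was not tested.

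SAH1, S-adenosylhomocysteine hydrolase, rose by 0.45 (limma adjusted p = 0.00921), and MET6, methionine synthase, by 0.35 (limma adjusted p = 0.00497). MET13, a methylenetetrahydrofolate reductase, rose by 0.32 (limma adjusted p = 0.00249), all on the log2 scale. MET13 averaged 184.4 ± 4.62 RPKM in R288D, 147.7 ± 6.92 RPKM in sac3∆ and 187.0 ± 3.10 RPKM in WT (SD, n = 3 each). The sulfate assimilation genes MET3 (ATP sulfurylase) and MET14 (adenylylsulfate kinase) had log2 intervals of -0.29 to 0.02 and -0.20 to 0.03. The list's median was -0.01.

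Zinc uptake gave the largest rise after SAC3 and INO1. ZRT1, the high-affinity zinc transporter gene at chrVII:20978-22108, had 192.3, 206.7 and 170.7 RPKM in R288D, against 49.7, 44.0 and 50.1 RPKM in sac3∆ and 989.3, 1032.6 and 957.4 RPKM in WT. The 3 groups were far apart, with R288D between the others. ZRT1 was 3.9-fold higher in R288D than in sac3∆ on the RPKM + 1 scale (log2 1.96 ± 0.07, SE; limma adjusted p = 1.07e-08), and 2.38 and 4.35 log2 units below WT in R288D and in sac3∆ (log2 differences -2.38 and -4.35).

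Of 16 genes linked to Zap1, the activator that responds to low zinc, 3 were called higher and 0 lower, and the list's median was 0.06. ZAP1 itself had 25.2, 22.5 and 25 RPKM in R288D, against 18.3, 17.7 and 18.8 RPKM in sac3∆ (log2 0.38 ± 0.06, SE; limma adjusted p = 0.00551). ZRT2, the low-affinity transporter, had 104.5, 105.3 and 103.7 RPKM in R288D, against 88.4, 82.3 and 88.3 RPKM in sac3∆ (log2 0.27 ± 0.05, SE; limma adjusted p = 0.009). Both genes separated the groups by much less than ZRT1 did. In all, 7 of the 16 listed genes had every R288D value above every sac3∆ value, against 7.04% of all tested features. For 1 listed gene every value lay below, against 5.0%, and 7 had an unadjusted p under 0.05, against 11.2%.

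The R288D and sac3∆ samples overlapped for 2 other listed genes that lay far below WT. ZPS1, a cell surface protein gene induced in low zinc, had 6.58, 12.0 and 9.49 RPKM in R288D, against 8.89, 9.97 and 9.59 RPKM in sac3∆ and 466.8, 479.3 and 445.3 RPKM in WT. ADH4, an alcohol dehydrogenase gene, averaged 71.5 ± 1.51 RPKM in R288D, 70.7 ± 4.03 RPKM in sac3∆ and 230.4 ± 23.8 RPKM in WT (SD, n = 3 each). The log2 intervals of R288D minus sac3∆ were -0.37 to 0.26 for ZPS1 and -0.14 to 0.18 for ADH4, well below the 1.81 to 2.12 of ZRT1. ZPS1 and ADH4 were picked after their values were seen, and no test compared ZRT1 with them.

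The ZRT1 promoter is shown because it is one of 6 of 5655 (0.106%) with a match to the zinc response element, the sequence that Zap1 binds, on either strand of the 300 bases before the start codon. In the zinc list, MCD4 is the other. Capitals mark the match, in which the middle base was free.
ZRT1, chrVII:20734-20824, plus strand: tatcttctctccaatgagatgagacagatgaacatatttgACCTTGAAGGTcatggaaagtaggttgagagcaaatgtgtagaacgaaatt

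Copper and iron uptake genes were called in both directions. Of 33 listed genes, 2 were called higher and 7 lower in R288D, and the median was -0.11. The 2 higher were CTR1, the high-affinity copper transporter, and FRE1, a reductase of ferric iron and copper. FRE7, a reductase gene known to be induced when copper is low and not on the list, was higher too and came under the rule for the largest rises. CTR1 had 299.4, 290.0 and 288.7 RPKM in R288D, against 198.0, 202.0 and 194.0 RPKM in sac3∆ and 263.2, 279.0 and 273.6 RPKM in WT (log2 0.56 ± 0.04, SE, for R288D minus sac3∆; limma adjusted p = 2.50e-05). FRE7 had 23.8, 23.1 and 25.9 RPKM in R288D, against 11.9, 13.4 and 12.9 RPKM in sac3∆ and 7.97, 8.94 and 7.55 RPKM in WT (log2 0.88 ± 0.08, SE; limma adjusted p = 7.97e-05). In both genes R288D was highest of the 3 groups, while sac3∆ was lowest for CTR1 and intermediate for FRE7. FRE1 rose by 0.36 (limma adjusted p = 0.00652), and the gene of the copper-sensing activator, MAC1, was not called (0.04, interval -0.10 to 0.17).

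The 7 lower genes act in iron uptake. FIT2 and FIT3 encode cell wall proteins that retain iron bound to siderophores, and FRE5 a predicted reductase. ENB1, ARN2 and SIT1 encode siderophore transporters, and FET3 the copper-dependent oxidase of high-affinity iron uptake. FIT2 had 44.9, 44.7 and 48.0 RPKM in R288D, against 87.7, 83.0 and 76.8 RPKM in sac3∆ and 53.8, 55.8 and 54.5 RPKM in WT. The sac3∆ samples were the high ones, and R288D lay slightly under WT. FIT2 fell by 0.83 on the log2 scale (SE 0.07; limma adjusted p = 3.71e-05).

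FET3 had 242.1, 234.4 and 278.0 RPKM in R288D, against 319.0, 330.0 and 316.1 RPKM in sac3∆ and 201.5, 211.1 and 204.3 RPKM in WT (log2 -0.36 ± 0.06, SE; limma adjusted p = 0.0079). ENB1, a transporter of ferric enterobactin, had 49.9, 56.2 and 52.5 RPKM in R288D, against 73.1, 72.7 and 66.9 RPKM in sac3∆ (log2 -0.42 ± 0.06, SE; limma adjusted p = 0.00249). FET3 thus lay between sac3∆ and WT in R288D, while ENB1 lay below both. The log2 differences of the other called genes were -0.84 for FRE5, -0.52 for FIT3, -0.40 for ARN2 and -0.31 for SIT1. FRE5 was weakly expressed, at 0.949 ± 0.251 RPKM in R288D and 2.49 ± 0.543 RPKM in sac3∆ (SD, n = 3 each).

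FTR1, the permease that works with Fet3, was not called (log2 -0.21, interval -0.41 to -0.01, limma adjusted p = 0.409), nor was the activator gene AFT1 (-0.14, interval -0.26 to -0.02, limma adjusted p = 0.344). In all, 13 of the 33 listed genes had every R288D value below every sac3∆ value, against 5.0% of all tested features. For 4 of the 33 every value lay above, against 7.04%. The count of listed genes called lower was sensitive to single samples. It was 3 without sac3∆ replicate 1, 4 without sac3∆ replicate 2 or R288D replicate 1, and 9 without R288D replicate 2. With the spread of the 6 samples alone only FIT2 was called.

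**Figure D3:**
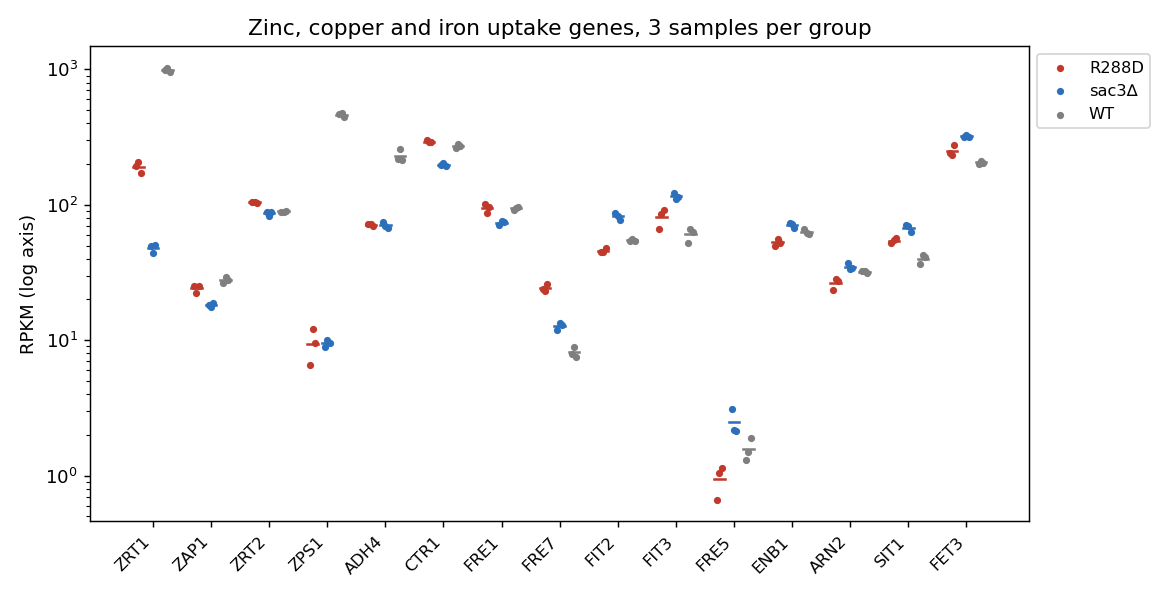
RPKM on a log axis of zinc, copper and iron uptake genes in each of 3 R288D (red), sac3∆ (blue) and WT (grey) samples; short bars are group means. ZRT1 spreads over 3 separate levels, ZPS1 and ADH4 overlap between R288D and sac3∆, CTR1, FRE1 and FRE7 are higher in R288D, and FIT2 through FET3 are lower in R288D.

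The letters TGCACCC, a form of the element bound by the iron-responsive activator Aft1, were found on either strand in 77 of 5655 promoters (1.36%) and in 7 of the 20 genes called lower (35%). Those 7 are COS8, ENB1, FET3, FIT2, FIT3, FRE5 and SIT1. None of the 64 genes called higher had them. Promoters of 3 genes that fell and hold the element are shown with the matches in capitals, GGGTGCA where the element lies on the other strand.
FIT2, chrXV:1059231-1059446, plus strand: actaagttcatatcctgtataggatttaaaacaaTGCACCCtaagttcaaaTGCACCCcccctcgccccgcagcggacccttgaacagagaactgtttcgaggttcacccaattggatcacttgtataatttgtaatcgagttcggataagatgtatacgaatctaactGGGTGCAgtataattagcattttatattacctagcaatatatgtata
FET3, chrXIII:388531-388617, plus strand: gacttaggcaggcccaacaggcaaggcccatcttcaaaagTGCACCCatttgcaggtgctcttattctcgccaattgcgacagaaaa
ENB1, chrXV:21402-21544, minus strand: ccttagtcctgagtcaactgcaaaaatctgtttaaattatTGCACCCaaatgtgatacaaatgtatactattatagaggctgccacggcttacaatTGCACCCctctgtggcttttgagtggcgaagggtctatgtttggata
FIT2 holds 3 matches, ENB1 2 and FET3 1. Of the 33 listed copper and iron genes 15 hold the letters, so the element is also present in listed genes that were not called, among them FTR1 and ARN1. TTTGCTC, a form of the Mac1 element, was found in 308 promoters (5.45%), in 5 of the 64 genes called higher (7.81%) and in 2 of the 20 called lower (10.0%). Of CTR1, FRE1 and FRE7 only FRE1 holds these letters in the window.

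Mating genes gave few calls. Of 19 mating fusion and agglutination genes, PRM1, which acts in plasma membrane fusion of mating cells, was the 1 called. It had 14.6, 15 and 14.7 RPKM in R288D, against 10.2, 9.52 and 9.85 RPKM in sac3∆ and 1.45, 1.25 and 1.26 RPKM in WT (log2 0.54 ± 0.09, SE, for R288D minus sac3∆; limma adjusted p = 0.00682). Every mutant sample was far above every WT sample, and R288D was above sac3∆. The median of the list was 0.05 for R288D minus sac3∆, beside 1.21 for R288D minus WT and 1.19 for sac3∆ minus WT, which share the WT samples.

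FIG1, a membrane protein needed for mating, averaged 20.7 ± 1.19 RPKM in R288D, 18.3 ± 1.59 RPKM in sac3∆ and 0.784 ± 0.101 RPKM in WT (SD, n = 3 each). AGA2, an agglutinin subunit, averaged 715.8 ± 53.8 RPKM in R288D, 680.2 ± 31.4 RPKM in sac3∆ and 161.6 ± 3.43 RPKM in WT. Their intervals for R288D minus sac3∆ were -0.04 to 0.38 and -0.05 to 0.19 on the log2 scale. Of 7 a-specific genes limma called 0, and 2 had an unadjusted p under 0.05. Of 4 alpha-specific genes MF(ALPHA)1, an alpha factor precursor gene, was called, with 16.3, 11.5 and 10.9 RPKM in R288D, against 4.7, 4.28 and 7.28 RPKM in sac3∆ and 3.17, 2.77 and 3.26 RPKM in WT (log2 1.13 ± 0.18, SE; limma adjusted p = 0.00698). Of 18 pheromone signalling genes KSS1, a MAP kinase, was called higher, by 0.42 (limma adjusted p = 0.00375). FIG1 and AGA2 were picked after their values were seen.

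Some cell wall and daughter cell genes were called lower. Of 23 daughter cell and M/G1 genes, which are expressed as mitosis ends, 3 were called lower and 0 higher: EGT2, PIR1 and PCL9. The list's median was -0.01, with 11 positive and 12 negative differences. EGT2, which acts in the separation of daughter cells, had 128.4, 131.5 and 133.9 RPKM in R288D, against 183.5, 177.2 and 170.9 RPKM in sac3∆ and 129.1, 148.7 and 143.7 RPKM in WT (log2 -0.43 ± 0.05, SE, for R288D minus sac3∆; limma adjusted p = 0.00123). PIR1, a cell wall glycoprotein, had 320.2, 343.0 and 342.1 RPKM in R288D, against 499.7, 468.5 and 437.5 RPKM in sac3∆ (log2 -0.48 ± 0.06, SE; limma adjusted p = 0.00249). For both genes R288D overlapped WT and sac3∆ was the high group. PCL9, a cyclin of the kinase Pho85, fell by 0.32, and the cell wall genes PST1 and CHS1 (a chitin synthase) fell by 0.34 and 0.22. PIR1, PST1 and CHS1 are the 3 of 39 listed cell wall genes called lower, and none was called higher. The list's median was 0.02, with 26 positive and 13 negative differences. KRE6 and KNH1, which act in cell wall glucan synthesis and are not on the list, were called higher, by 0.19 and 0.40 (limma adjusted p = 0.0458 and 0.0365), and are named after their values were seen.

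Among 24 G2/M genes, the mitotic cyclin gene CLB1 and the bud site gene BUD8 were called higher, by 0.31 and 0.28, and the list's median was 0.11. Of the 24, 14 had every R288D value above every sac3∆ value, against 7.04% of all tested features. For 2 every value lay below, against 5.0%, and 12 had an unadjusted p under 0.05, against 11.2%. Without R288D replicate 2, 7 of the 24 were called higher and 0 lower, against 3.76% and 3.89% of all tested features. CLB1 averaged 94.5 ± 6.86 RPKM in R288D, 75.7 ± 1.23 RPKM in sac3∆ and 52.8 ± 1.65 RPKM in WT (SD, n = 3 each). Of 24 G1/S genes limma called 0, with 6 at an unadjusted p under 0.05, and of 10 histone genes 0, with 5. The share of cells in each cycle stage was not measured, and in bulk RNA a change in the share of cells that express a gene and a change in RNA per cell cannot be told apart.

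Other genes were the only called members of their lists when all samples were used. SSA3, a stress-inducible Hsp70 chaperone, had 40.9, 40.6 and 43.9 RPKM in R288D, against 24.9, 25.2 and 27.1 RPKM in sac3∆ and 18.0, 18.6 and 18.0 RPKM in WT (log2 0.68 ± 0.06, SE; limma adjusted p = 0.000105). It was the 1 called of 30 heat shock genes. Of the 30, 8 had every R288D value above every sac3∆ value and 2 every value below, against 7.04% and 5.0% of all tested features. Without R288D replicate 2, 4 of the 30 were called higher and 0 lower, against 3.76% and 3.89% of all tested features. RNR3, a DNA damage-inducible subunit of ribonucleotide reductase, rose by 0.37 (limma adjusted p = 0.0251) and was the 1 called of 23 DNA damage genes. An unadjusted p under 0.05 was found for 12 of the 23, against 11.2% of all tested features. Every R288D value lay above every sac3∆ value for 7 and below for 1, against 7.04% and 5.0%. Without R288D replicate 2, 3 of the 23 were called higher and 3 lower, against 3.76% and 3.89%. GRE1, a small hydrophilic stress protein, rose by 0.51 (limma adjusted p = 0.00563). YHB1, the flavohemoglobin that detoxifies nitric oxide, averaged 135.4 ± 3.86 RPKM in R288D, 103.3 ± 6.29 RPKM in sac3∆ and 410.5 ± 1.68 RPKM in WT (SD, n = 3 each; log2 0.39 for R288D minus sac3∆, limma adjusted p = 0.00119).

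The number of glucose-linked genes called lower depended on R288D replicate 2. HXT1, a low-affinity glucose transporter, was the 1 gene called of 18 hexose transporter and glucose sensing genes, with 76.7, 69.8 and 70.3 RPKM in R288D, against 94.0, 92.1 and 120.7 RPKM in sac3∆ and 96.2, 111.1 and 112.1 RPKM in WT (log2 -0.49 ± 0.09, SE; limma adjusted p = 0.0254). Its 3 R288D samples were alike. HXT1 stayed called without R288D replicate 2 (log2 -0.46, limma adjusted p = 0.0302) but not without R288D replicate 3 (limma adjusted p = 0.105). Hexose transporter genes are close paralogs, and the sources used here do not say how reads matching several of them were assigned. The median of the list was -0.16, and without R288D replicate 2 it was -0.27, with 10 of 18 called lower against 3.89% of all tested features. The list was named after replicate 2 was seen to lie above the other R288D samples in it. Leaving that sample out therefore lowers the list's R288D values by the choice of list.

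HXT2, a high-affinity glucose transporter, shows the pattern. It had 518.0, 1201.4 and 639.8 RPKM in R288D replicates 1, 2 and 3, against 1186.6, 944.7 and 976.3 RPKM in sac3∆, so replicate 2 alone lay above all sac3∆ samples. Its log2 difference was -0.49 (limma adjusted p = 0.494) with all samples and -0.84 (limma adjusted p = 0.00598) without replicate 2. Without that library limma called 12 of 20 trehalose and glycogen genes lower, 13 of 46 general stress genes and 7 of 24 glucose-repressed genes. These are 27 distinct genes, since GLC3, GSY2, PGM2, TPS1 and TPS2 are on both of the first 2 lists. Of all tested features, 3.89% were called lower without that library. The trehalose and glycogen, general stress and glucose-repressed lists were likewise named after replicate 2 was seen to lie above the other R288D samples. Their counts above that share follow in part from this choice. With all samples limma called 0 in each of these lists. There 2, 8 and 0 members had an unadjusted p under 0.05, against 11.2% of all tested features. TPS2, trehalose-6-phosphate phosphatase, had a log2 difference of -0.23 (limma adjusted p = 0.316) with all samples and -0.35 (limma adjusted p = 0.00858) without it. Which of the R288D samples is typical of the genotype was not tested.

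In glycolysis and fermentation, PDC5, a pyruvate decarboxylase, and TDH1, a glyceraldehyde-3-phosphate dehydrogenase, were the 2 of 23 genes called higher, by 0.40 and 0.29. TDH1 is a close paralog of TDH2 and TDH3, and its value carries the same doubt about shared reads. The list's median was 0.11, and 9 of its 23 genes had every R288D value above every sac3∆ value, against 7.04% of all tested features.

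Genes of the partners of Sac3 and of Mediator were not called. The 4 other TREX-2 genes had log2 differences of 0.05 for THP1 (interval -0.09 to 0.19), -0.09 for SUS1 (-0.25 to 0.08), -0.01 for SEM1 (-0.17 to 0.15) and -0.28 for CDC31 (-0.52 to -0.04). THP3, whose protein forms another mRNA-linked complex with Csn12, had 17.0, 16.6 and 18.5 RPKM in R288D, against 16.6, 17.6 and 17.6 RPKM in sac3∆ and 48.6, 50.2 and 52.3 RPKM in WT. Both mutants were far below WT, with a log2 interval of -0.11 to 0.12 between them. SOH1, the gene of Med31, differed by -0.10 (interval -0.29 to 0.10), and limma called 0 of the 9 genes of Med31 and the Mediator middle, 0 of which had an unadjusted p under 0.05. SSN3, the gene of the Mediator kinase Cdk8, averaged 56.9 ± 3.67 RPKM in R288D and 47.8 ± 3.23 RPKM in sac3∆ (SD, n = 3 each; log2 0.25, limma adjusted p = 0.171), and limma called 0 of the 4 kinase module genes, 2 of which had an unadjusted p under 0.05. Of 15 mRNA export factor genes limma called 0, with 1 at an unadjusted p under 0.05, and all 15 had an interval inside -0.5 to 0.5.

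Ribosomal protein genes were not called. Of 138, limma called 0 between R288D and sac3∆ and 1 had an unadjusted p under 0.05, 130 had an interval inside -0.5 to 0.5, and the median log2 difference was 0.02. Their medians against WT were -0.71 in R288D and -0.73 in sac3∆, which share the WT samples. IFH1, a coactivator of ribosomal protein genes, had 98.0, 84.3 and 88.6 RPKM in R288D, against 100.9, 90.3 and 87.1 RPKM in sac3∆ and 27.1, 28.3 and 25.4 RPKM in WT. R288D overlapped sac3∆ and both were far above WT, and the log2 interval between them was -0.19 to 0.11. IFH1 was picked after its values were seen.

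**Figure D4:**
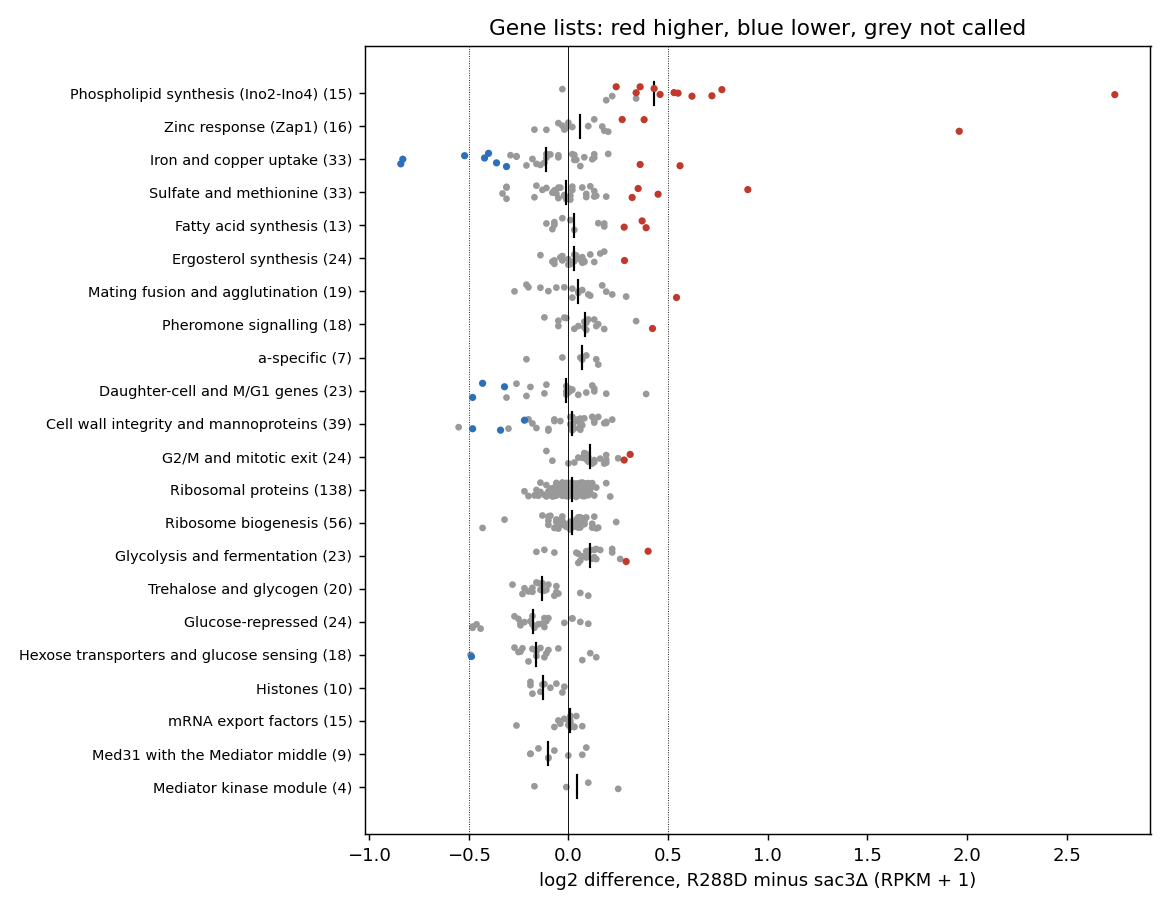
Log2 difference (R288D minus sac3∆, RPKM + 1) of each tested member of 22 gene lists, with the number tested in parentheses. Red points were called higher, blue points lower, grey points were not called, black ticks are list medians and dotted lines mark -0.5 and 0.5; the phospholipid list has 11 red points, and ribosomal protein and export factor genes crowd around 0.

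Among genes without a standard name, YNR064C and YLR012C stood out by size. YNR064C, an epoxide hydrolase in RefSeq, had 2.34, 5.21 and 3.45 RPKM in R288D, against 19.6, 17.6 and 18.4 RPKM in sac3∆ and 1.31, 2.22 and 2.44 RPKM in WT. It was 4.32-fold higher in sac3∆ than in R288D on the RPKM + 1 scale (log2 -2.11 ± 0.21, SE; limma adjusted p = 0.000196), and the sac3∆ samples lay far above those of R288D and WT. R288D was also above WT (log2 0.62, limma adjusted p = 0.027). YLR012C, an open reading frame of unknown function, had 6.82, 10.2 and 6.75 RPKM in R288D, against 2.92, 2.42 and 1.15 RPKM in sac3∆ and 2.17, 2.99 and 1.46 RPKM in WT (log2 1.52 ± 0.24, SE; limma adjusted p = 0.0067). Here R288D lay above both sac3∆ and WT, while cdk8∆, with 15.5, 18.1 and 16.2 RPKM, was higher still. Both were picked after their values were seen. No called gene overlaps another feature matched to the RefSeq annotation, but the 966 features not matched to it were not checked. The sources used here do not say whether reads were counted by strand.

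COS8, a subtelomeric gene of the COS family, had 54.9, 60.3 and 52.7 RPKM in R288D, against 92.9, 94.3 and 91.8 RPKM in sac3∆ and 82.9, 84.6 and 76.3 RPKM in WT (log2 -0.72 ± 0.06, SE; limma adjusted p = 2.42e-05). R288D was the low group. It was the 1 called of 8 tested COS genes, whose sequences are near copies of each other, so the split of reads between them is uncertain.

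The place of WT differed among the called genes. Of the 64 genes called higher, the R288D mean lay between sac3∆ and WT for 22 (ZRT1, SAM2, FAS1 and MET6 among them), WT lay between the mutants for 23 (INO1, ITR1, OPI3 and CTR1), and sac3∆ lay between R288D and WT for 19 (FRE7, PRM1 and SSA3). Of the 20 called lower, the counts in the same order were 8 (YNR064C and FET3), 11 (FIT2 and COS8) and 1 (HXT1). These orders describe means and were not tested.

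**Figure D5:**
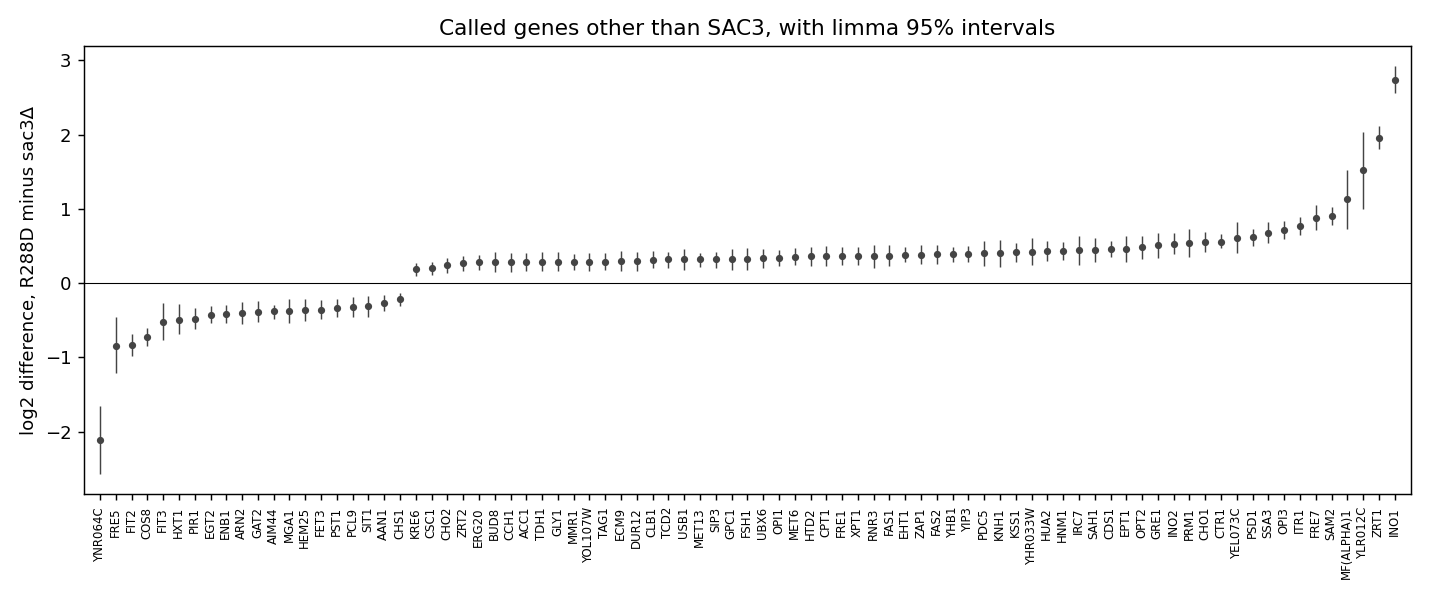
Log2 difference (R288D minus sac3∆, RPKM + 1) with its limma 95% interval for the called genes other than SAC3. INO1 and ZRT1 lie well above the rest, YNR064C well below, and most intervals lie within 1 unit of 0.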

How the data were processed

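RNA sequencing of 12 yeast samples, 3 per group, was analysed from 1 table that the authors deposited, whose values are RPKM, read density per gene length and library size. Per the labels' protocols, hot phenol extraction, digestion of DNA and depletion of ribosomal RNA came before library preparation. By the submitters' processing notes the build was R64 and the tools included HTSeq 0.5.4p3, limma, edgeR, TopHat2 2.0.9 and R 3.0.1, with no role stated for any. The sources used here do not give the read filter or the assignment of reads matching several genes.

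The library sizes behind the deposited RPKM values appear scaled between samples. In each sample 99.51 to 99.76% of low values were whole reads within 0.1 read, which gave 14891680 to 21003328 reads in annotated features, and 305 features were at 0 in every sample. These depths set the precision of weakly expressed genes, and the intervals cover only the spread between samples.

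Features averaging 1 RPKM or more were tested, and those next to this limit averaged 1.001 RPKM inside and 0.9993 RPKM outside it. Of 7126 features 6160 matched the RefSeq R64 annotation. Values were taken as log2(RPKM + 1), a scale that understates changes of weakly expressed genes. With limma 3.58.1 (R 4.3.3) the 4 group means were estimated from the 12 samples together, leaving 8 residual degrees of freedom. Variances were moderated by eBayes along the mean level, tests were two-sided, and p-values of all 6124 features were adjusted by the Benjamini-Hochberg method, with a threshold of 0.05. Lists were described by counts and medians without a set test. The samples compared, the gene lists and the members were chosen with earlier results of these data known. Genes were named by rule: the TREX-2, Thp3-Csn12 and Mediator groups, the 15 largest rises and falls among called genes with a standard name and groups that do not overlap, and up to 4 called members per list, or the largest difference where a list had none called. Genes named outside the rule, after values were seen, are further members of the phospholipid, zinc, iron and copper, methionine, mating, glucose and ribosomal protein lists (among them OPI1, HNM1, EPT1, CPT1, CHO2, CKI1, EKI1, INO4, PIS1, MCD4, MET3, MET14, FTR1, AFT1, MAC1, ARN1, SIT1, HXT2, TPS2, TDH2, TDH3, STE2 and STE3), PSD2, and those marked in the text. Sequences were read from RefSeq R64. Protein sequences were not used here. The replicate numbers were not taken as pairs. Alternatives were another pseudocount, filter, scaling or spread estimate, a block on replicate number, and each sample left out. Tables and plots were made with Python 3.11.15, pandas 2.3.3, numpy 2.4.6 and matplotlib 3.10.9.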

Additional observations from a re-analysis of the deposited data

How the results depend on the processing

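All 84 called genes kept their direction under the 15 alternatives run, except that a filter at a mean of 10 RPKM left FRE5, MF(ALPHA)1, PRM1, YLR012C and YNR064C untested. The number called was 80 to 86 with another pseudocount, filter or scaling and 79 without the mean trend. With the spread of the 2 groups alone it was 17 (13 higher, 4 lower). Of listed genes, 5 in phospholipid synthesis were higher and 1 in iron and copper uptake was lower. That fit has fewer samples behind the spread, and the groups also differ in spread. Over features, the SD of the log2 difference between 2 samples of a group was 0.266 to 0.32 in R288D and 0.227 to 0.265 in sac3∆. It was 0.229 to 0.236 in WT and 0.161 to 0.189 in cdk8∆. The main intervals and p-values pool all 4 groups and rest partly on the less variable cdk8∆ samples. Why the count fell was not tested. With each sample left out in turn the number called was 53 to 468 (42 to 230 higher, 11 to 238 lower), and listed iron and copper genes called lower numbered 3 to 9. The cause of the moves between left-out samples was not tested. Samples with the same replicate number correlated at -0.291, -0.136 and 0.049 in their deviations from the group means, so the numbers were not taken as pairs, and with a replicate block 63 features were called. Intervals inside -0.5 to 0.5 made up 79.7 to 93.7% of the tested features.

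Genes near 0 changed sign. With medians set equal SEM1, YJR084W (CSN12), SRB8 and NUT1 were at a log2 difference of 0.01, as was NUT1 with quantile normalization. With 1 sample left out the log2 differences ranged from -0.08 to 0.05 for SEM1, -0.04 to 0.04 for THP3, -0.04 to 0.02 for YJR084W, -0.16 to 0.02 for SRB7, -0.02 to 0.06 for ADH4 and MAC1, -0.06 to 0.03 for SAM1, -0.10 to 0.02 for IFH1, -0.17 to 0.05 for STE3 and -0.23 to 0.16 for ZPS1. None of these was called.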

Other observations

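Several called genes sit side by side in the genome. FIT2, FIT3 and FRE5 follow each other on chromosome XV (chrXV:1059531-1059992, chrXV:1060441-1061055 and chrXV:1061564-1063648), and all 3 were called lower. COS8 and ARN2 lie next to each other near the left end of chromosome VIII (chrVIII:6401-7546 and chrVIII:8351-10213) and were both called lower. Reads of neighbours were not examined here.

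Of the 84 called genes 32 are on none of the 59 lists. EHT1, an acyltransferase that forms fatty acid ethyl esters, averaged 182.0 ± 7.28 RPKM in R288D, 139.4 ± 3.86 RPKM in sac3∆ and 161.1 ± 6.83 RPKM in WT (SD, n = 3 each; log2 0.38 for R288D minus sac3∆, limma adjusted p = 0.00113). OPT2, an oligopeptide transporter gene, averaged 7.33 ± 0.42 RPKM in R288D, 4.98 ± 0.243 RPKM in sac3∆ and 7.13 ± 0.256 RPKM in WT (log2 0.48, limma adjusted p = 0.00563). AIM44, a bud neck protein gene, averaged 68.3 ± 2.31 RPKM in R288D, 89.2 ± 2.64 RPKM in sac3∆ and 48.3 ± 1.54 RPKM in WT (log2 -0.38, limma adjusted p = 7.90e-04). EHT1 was picked after its values were seen.

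Some lists lean to one side without a call. All 10 histone genes had a negative difference, between -0.19 and -0.02 on the log2 scale with a median of -0.13. Of 54 other amino acid synthesis genes 44 had a positive difference, with a median of 0.08 and 0 called by limma (10 at an unadjusted p under 0.05). Without R288D replicate 2, 11 of these 54 were called higher, against 3.76% of all tested features, ASN1 (asparagine synthetase) at 0.48 (limma adjusted p = 0.00523, against 0.31 and 0.358 with all samples).

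Small nuclear and nucleolar RNAs could not be compared well. Of 80 tested, limma called 0, 5 had an unadjusted p under 0.05, and 14 had an interval inside -0.5 to 0.5. Their median log2 difference was -0.21, with a median standard error of 0.21 against 0.07 over all tested features.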
